A study of Homo sapiens with 16 samples.

Results

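Downstream-of-gene (DoG) readthrough transcripts of the translation machinery genes were measured in HEK293 cells. DoGs are RNAs that arise when RNA polymerase II runs past the end of a gene instead of terminating there. The members were the DoGs of every gene whose symbol named a numbered ribosomal protein, a translation initiation or elongation factor, or an aminoacyl-tRNA synthetase, without the RPS6 kinases and EIF2A. They held 78 of the 3135 genes with a DoG expression value, in 79 of 3139 rows, since RPS10 had 2 rows with the same values and was counted once. HEK293 is an established human embryonic kidney line, and the wild-type cells were left in normal medium (Ctrl) or incubated for 9 h with 200 mM sorbitol and 100 μg/mL cycloheximide (OS+CHX). Sorbitol imposes osmotic stress and cycloheximide stops translation elongation. RNA of each condition was prepared in 4 ways, with 2 biological replicates each, which gave 16 libraries in 8 groups. Conventional AGPC extraction and the first step of SERIPH (1st-step RNA) both sampled the aqueous phase. In hiAGPC the lysate was heated as well, and the second step of SERIPH (2nd-step RNA) heated the washed interphase to recover what it held. All groups were the same cell line, sorbitol and cycloheximide were given only together, and neither agent can be told apart from the other.

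Ribosomal proteins build the small (40S, RPS genes) and large (60S, RPL genes) ribosomal subunits and are made from short genes that are transcribed at high rates, several of which carry small nucleolar RNAs (snoRNAs) in their introns. Initiation factors (EIF genes) place the ribosome at the start codon, elongation factors (EEF genes) bring aminoacyl-tRNA and move the ribosome along, and synthetases charge the tRNAs. At most genes the polymerase is released after the 3′ end is cut at a poly(A) signal, and hyperosmotic stress is known to weaken this release and give DoGs at many genes.

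The 78 members were 21 genes of 60S proteins, 20 of 40S proteins, 22 of initiation factors, 4 of initiation regulators (EIF2AK2 and EIF4EBP1 to EIF4EBP3), EEF1A1, the elongation factor methyltransferase EEF1AKMT4, 4 cytosolic synthetases and 5 mitochondrial ones. The members were not all cytosolic translation genes, since CARS2, MARS2, NARS2, WARS2 and YARS2 charge tRNA in mitochondria. The factors were grouped by symbol, so that EIF4A3, a helicase of the exon junction complex, and EIF5A, which acts in elongation, stand among the initiation factors. EIF3C and EIF3CL are near-identical copies, so that with uniquely mapped reads their values are uncertain, and RPL39L, RPL22L1 and RPL7L1 are paralogs of other ribosomal protein genes. The cell line could not be checked by marker genes, because the files hold DoGs alone.

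DoG regions were listed per library, with a minimum of 10000 bp, and DoG expression was given as FPKM over a single region per gene, rounded to 0.01. The exact depth of each library is not given and FPKM depends on all other RNA in a library. The 2nd-step libraries were made from less RNA than the 1st-step ones. A DoG has an FPKM because at least 1 library listed it, mostly an OS+CHX library, so higher values under OS+CHX are in part fixed by that choice. In bulk RNA, more cells with a DoG and more DoG RNA per cell cannot be told apart. Between Ctrl and OS+CHX, the median of all DoGs on the log2(FPKM + 0.1) scale moved by 0.56 in the conventional preparation, 1.92 in hiAGPC, 0.50 in 1st-step RNA and 2.25 in 2nd-step RNA. The members' changes are therefore also given after centring, in which the median of all DoGs was subtracted from every library.

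The sequence at the start of a DoG shows whether a poly(A) signal hexamer lies just before the listed start, which is at or near the annotated gene end in most members. The following 6 were read from GRCh38 on the transcribed strand, 30 bases before the DoG start and the first 70 bases of the DoG, and AATAAA or ATTAAA within the first 30 bases is in capitals. RPS12 (chr6:132817548-132817647, plus strand) and RPS29 (chr14:49570914-49571013, minus strand) had the longest regions, and EIF3A (chr10:119033600-119033699, minus strand) had the longest of the initiation factors. RPL36 (chr19:5691852-5691951, plus strand) and EIF5A (chr17:7312437-7312536, plus strand) had the highest expression under OS+CHX in 2nd-step RNA, and CARS2 (chr13:110641341-110641440, minus strand) the highest in the conventional preparation. The DoG started 13 bp past the GENCODE v44 gene end in RPS12, 6 bp in RPL36, 3 bp in EIF5A and 1 bp in CARS2. Their windows therefore hold fewer bases of the gene, and a hexamer further upstream would be missed.
RPS12: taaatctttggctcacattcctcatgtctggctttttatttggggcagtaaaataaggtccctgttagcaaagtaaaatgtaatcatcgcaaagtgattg
RPS29: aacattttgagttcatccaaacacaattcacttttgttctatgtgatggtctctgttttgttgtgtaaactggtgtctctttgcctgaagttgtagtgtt
EIF3A: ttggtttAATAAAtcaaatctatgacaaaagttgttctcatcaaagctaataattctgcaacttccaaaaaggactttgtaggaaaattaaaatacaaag
RPL36: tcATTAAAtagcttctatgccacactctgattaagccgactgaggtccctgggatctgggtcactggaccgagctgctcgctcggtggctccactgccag
EIF5A: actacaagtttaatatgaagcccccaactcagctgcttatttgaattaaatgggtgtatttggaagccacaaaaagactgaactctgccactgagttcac
CARS2: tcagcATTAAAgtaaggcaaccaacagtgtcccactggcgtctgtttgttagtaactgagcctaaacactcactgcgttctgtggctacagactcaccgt

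Over all 78 members, AATAAA lay in the 30 bases before the DoG start of 27 genes (34.6%) and ATTAAA in 6 (7.69%), against 41.2% and 13.4% of all DoGs. On the opposite strand, either hexamer lay there in 7.69% of members and 6.54% of all DoGs. The DoG did not always start at the end of the main transcript, because the annotation adds long isoforms to several ribosomal protein genes. In GENCODE v44, the DoGs of 19 members, 14 of them ribosomal protein genes, started over 1 kb past the end of the canonical transcript, which was 75.1 kb away in RPL37A, 41.4 kb in RPS9 and 12.6 kb in RPS29. The stretch between the canonical end and the DoG start was not covered by the listed regions. In the last 30 bases of the canonical transcript, either hexamer was found in 62.8% of members and 65.7% of all DoG genes. These matches are letters in fixed windows and were not tested for use.

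More translation genes had a listed DoG under OS+CHX than under Ctrl in every preparation, with the largest gain where the interphase was sampled. Under Ctrl, 5 and 5 members were listed in the conventional libraries, 9 and 9 in hiAGPC, 5 and 5 in 1st-step RNA and 13 and 13 in 2nd-step RNA. Under OS+CHX, the numbers were 23 and 21, 63 and 63, 20 and 23, and 67 and 70. The 4 libraries of each comparison did not overlap, and p was 0.333 in a two-sided exact permutation test, below which 2 against 2 libraries cannot go.

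**Figure D1:**
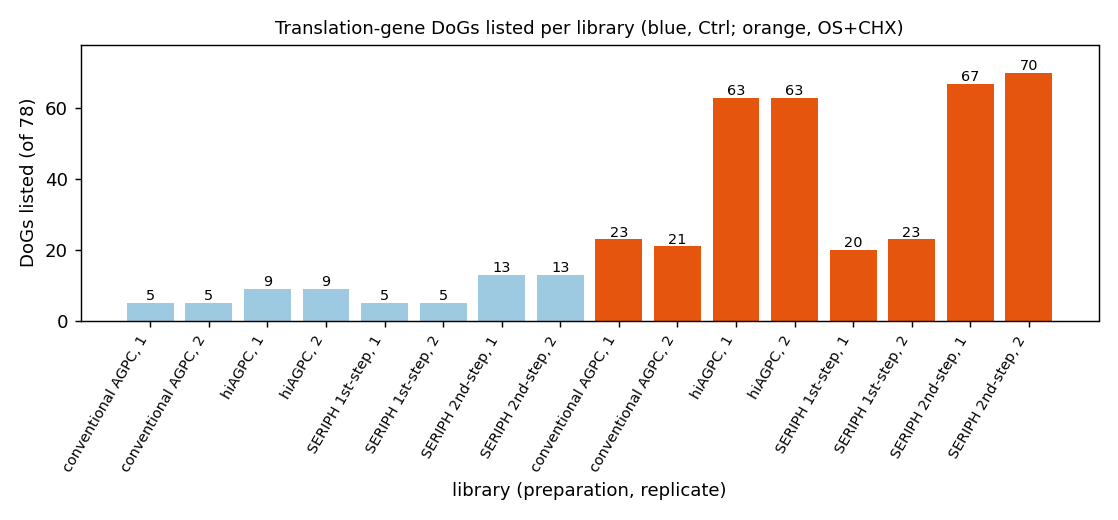
Number of the 78 translation genes with a listed DoG (vertical axis) in each of the 16 libraries (horizontal axis), with Ctrl in blue and OS+CHX in orange. The OS+CHX libraries of hiAGPC and 2nd-step RNA listed 63 to 70 of the genes, the aqueous OS+CHX libraries 20 to 23 and the Ctrl libraries 5 to 13.

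Listing in both replicates, which the study used to call a DoG reproducible, gave 5, 7, 4 and 11 members under Ctrl in the order conventional AGPC, hiAGPC, 1st-step RNA, 2nd-step RNA, where 8.74%, 12.9%, 6.92% and 18.2% of all genes with an FPKM were reproducible. Under OS+CHX the counts were 21, 60, 20 and 66 members, against 9.73%, 44.4%, 8.1% and 64.1% of all genes. Under OS+CHX the members' share was thus above that of all genes in the 4 preparations.

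The aqueous OS+CHX libraries listed a larger share of the translation genes than of all genes. All 4 aqueous OS+CHX libraries listed 18 members, or 23.1%, where 7.21% of all genes were listed in all 4. Those 18 were 9 genes of 60S proteins (RPL10A, RPL21, RPL27A, RPL3, RPL31, RPL32, RPL36, RPL7 and RPL9), 5 of 40S proteins (RPS12, RPS3, RPS3A, RPS4X and RPS6), EIF4A3, EIF5 and EIF5A of the EIF genes, and CARS2. The same 18 were listed in all 8 OS+CHX libraries, against 6.03% of all genes. No aqueous OS+CHX library listed the DoG of 52 members (66.7%), compared with 84.2% of all genes. Of these, 39 members (50.0%) were listed in no library but OS+CHX ones of hiAGPC or 2nd-step RNA, where the share of all genes was 64.1%. They held 13 genes of 40S proteins, RPS29, RPS9 and RPS15A among them, 13 of initiation factors and 6 of 60S proteins.

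Without stress most members had no listed DoG, since 63 (80.8%) were listed in no control library, as were 74.1% of all genes. A control library listed the remaining 15 members, or 19.2%, against 25.9% of all genes. RPL11, a 60S protein that also binds MDM2, RPL34 and the threonyl-tRNA synthetase TARS1 were listed in all 8 Ctrl libraries, and no member was listed in all 16 libraries, where 1.24% of all genes were. EIF3C, EIF3CL, RPL39L and WARS2 were listed in no OS+CHX library, which held for 12.0% of all genes.

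By the median of the longest listed regions, ribosomal protein, initiation factor and cytosolic synthetase genes stood above the other roles. The median longest region was 152.5 kb for 40S proteins, 90 kb for 60S proteins, 60 kb for initiation factors and 47.5 kb for cytosolic synthetases. It was 20 kb for initiation regulators, 15 kb for mitochondrial synthetases, 25 kb for EEF1A1 and 10 kb for EEF1AKMT4. Single genes of these roles had long regions too, with 95 kb in EIF4EBP3 and 75 kb in MARS2. The cytosolic synthetases were 4 genes, and SARS1 had 121.978 kb in OS+CHX 2nd-step replicate 1 but 15 kb in replicate 2. The longest listed region had a median of 70 kb over the 78 members and of 30 kb over all DoGs, and it reached 100 kb in 32 members (41.0%) and in 19.4% of all. The genes themselves were short, with a median length of 13.2 kb against 31.9 kb. RPS29 had the longest, with 895 kb in both hiAGPC replicates and 915 kb and 985 kb in the 2nd-step replicates under OS+CHX, reaching to chr14:48585984-49570983 on the minus strand of GRCh38 without overlapping a protein-coding gene on that strand. RPS12 was listed over 205 kb in 6 OS+CHX libraries, over 155 kb in 1st-step replicate 1, and over 915 kb in 2nd-step replicate 2 alone. Its longest region, chr6:132817578-133732577 on the plus strand, held the gene EYA4, and the authors chose their detection settings on the RPS12 locus. EIF3A, the largest subunit of the initiation factor eIF3, had 245 kb and 210 kb in hiAGPC and 663.673 kb and 275 kb in 2nd-step RNA, and its longest region ran through CACUL1 and PRLHR.

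The longest region lay over another protein-coding gene of the same strand in 32 members (41.0%) and in 19.0% of all DoGs, so that reads of that gene could enter the member's FPKM. No member lay within the listed DoG of another gene, as 3.77% of all genes did. Regions of different members did not overlap each other. A snoRNA was annotated inside 16 members (20.5%), 12 of them ribosomal protein genes, against 2.37% of all DoG genes.

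DoG expression of the members, like that of all DoGs, was low under Ctrl and higher under OS+CHX, most of all in hiAGPC and 2nd-step RNA. The median FPKM over the 78 members was 0.12 to 0.15 in the 8 Ctrl libraries, 0.25 to 0.29 in the 4 aqueous OS+CHX libraries, 0.965 and 0.93 in hiAGPC, and 1.445 and 1.37 in 2nd-step RNA. Over all DoGs the medians were 0.07 to 0.10, 0.14 to 0.16, 0.58 and 0.58, and 0.86 and 0.84 in the same order. Mean FPKM under OS+CHX in 2nd-step RNA went from 0.00 in RPL39L to 6.06 in RPL36. Under Ctrl the highest mean belonged to EIF3L in both aqueous preparations (1.68 and 2.50 FPKM), to RPL11 in hiAGPC (1.49) and to EIF3CL in 2nd-step RNA (1.92).

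**Figure D2:**
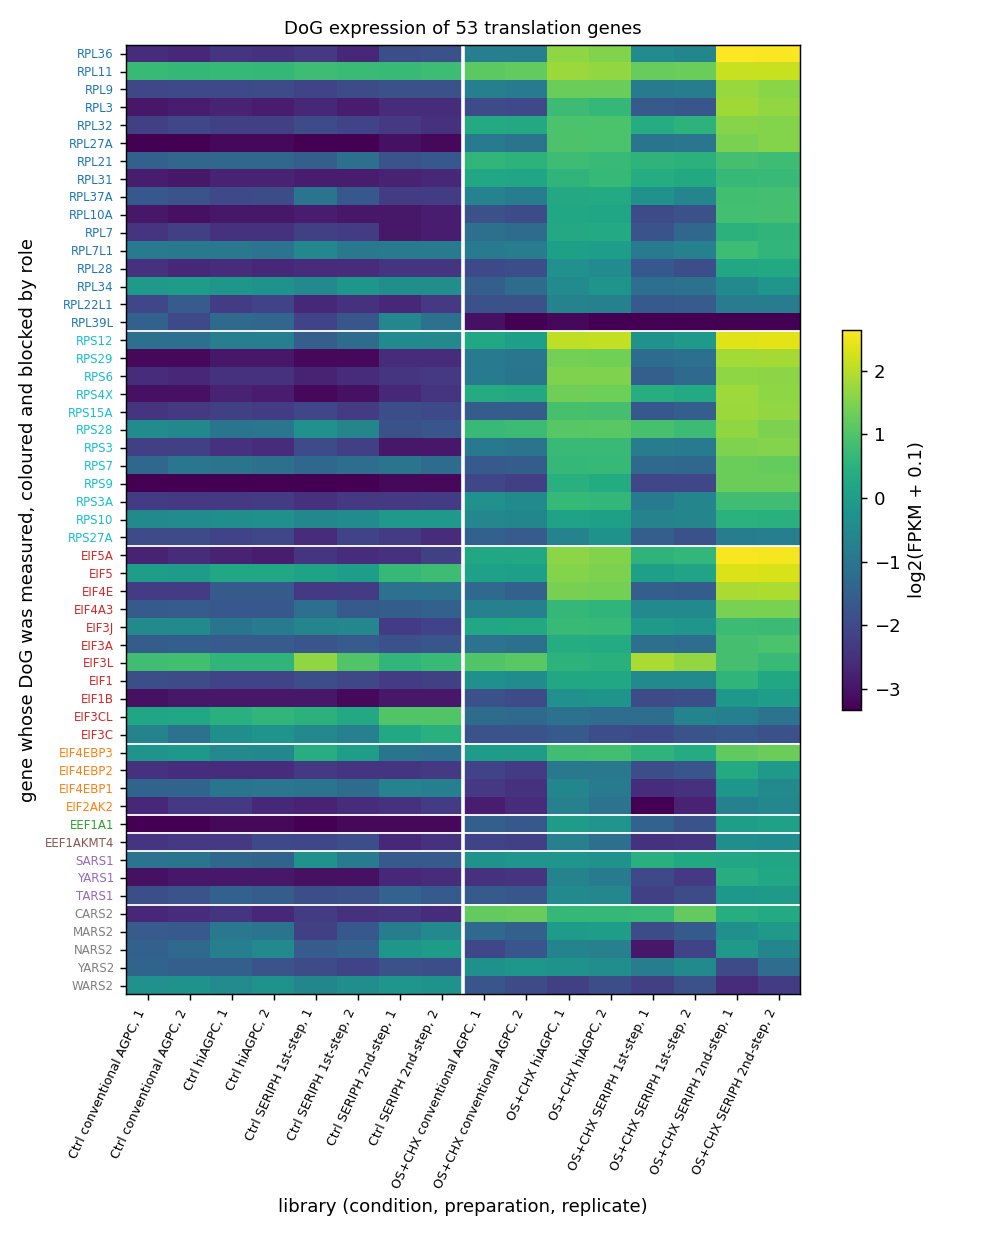
DoG expression of the 53 genes named in the text (rows, blocked and coloured by role) in the 16 libraries (columns, Ctrl left and OS+CHX right of the white line), as log2(FPKM + 0.1) in colour. The columns of hiAGPC and 2nd-step RNA under OS+CHX are the brightest for most of the ribosomal protein and initiation factor genes shown, whereas EIF3C, EIF3CL, RPL39L and WARS2 are darker under OS+CHX than under Ctrl.

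The effect of OS+CHX was tested in each preparation with limma on log2(FPKM + 0.1) over all 3139 rows, and a DoG was called at an adjusted p under 0.05 and a log2 difference of at least 1. In 2nd-step RNA, 63 of 78 members were called higher and 4 lower, where 74.6% of all DoGs were higher and 11.7% lower. The median log2 difference was 2.59 for the members and 2.38 for all DoGs, and after centring 22 members were called higher and 16 lower, against 18.5% and 28.2% of all DoGs. In hiAGPC, 61 members were higher and 4 lower, against 70.2% and 9.14% of all DoGs, with medians of 2.08 and 1.86. After centring 21 were higher and 15 lower there, against 13.9% and 28.7%. The members' shares of higher calls before centring were thus near the background in both preparations. With a pseudocount of 1 the higher members were 39 in 2nd-step RNA and 22 in hiAGPC, against 25.8% and 10.8% of all DoGs.

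**Figure D3:**
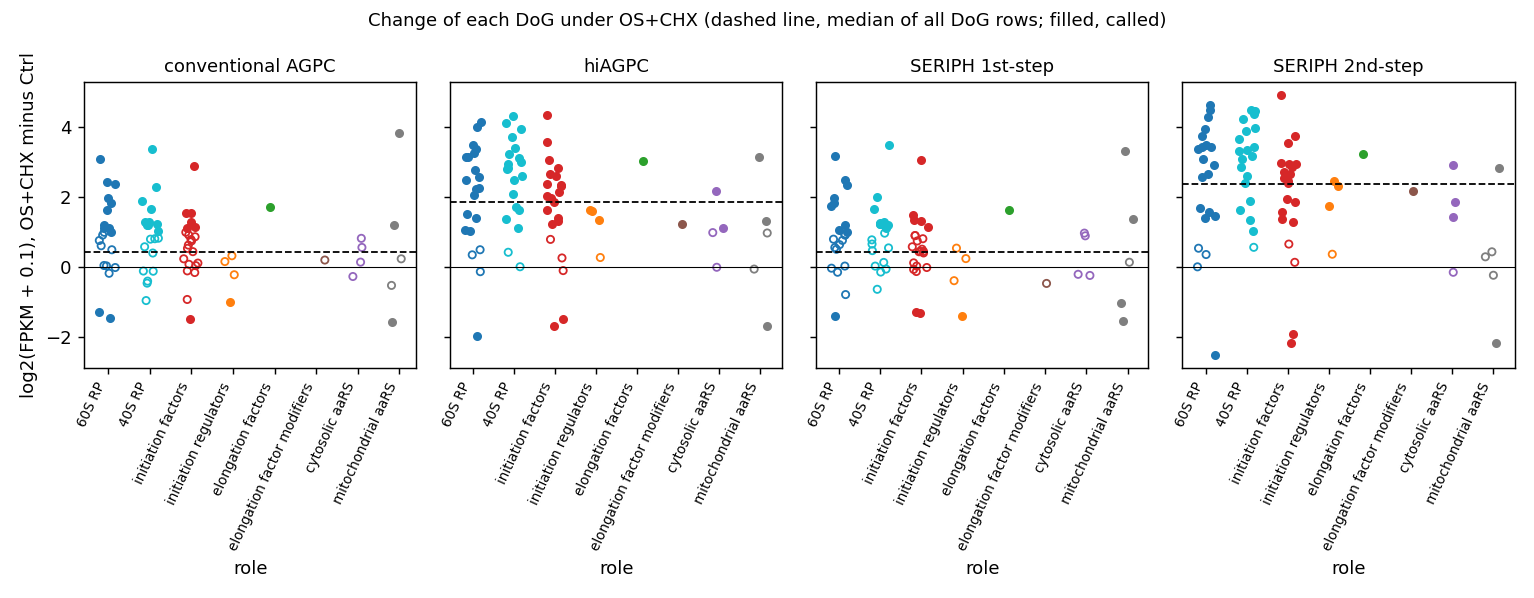
Difference of log2(FPKM + 0.1) between OS+CHX and Ctrl (vertical axis) for each of the 78 DoGs, by role (horizontal axis; RP, ribosomal protein; aaRS, aminoacyl-tRNA synthetase) and by preparation (panels). Filled points were called, open points were not, and the dashed line is the median of all DoGs, 0.44, 1.86, 0.43 and 2.38 from left to right.

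Among 60S proteins, 17 of 21 were higher and 1 was lower in 2nd-step RNA, against 74.6% and 11.7% of all DoGs. Their median log2 difference was 2.92, against 2.38 over all DoGs. Values of a DoG follow the order conventional AGPC, hiAGPC, 1st-step RNA, 2nd-step RNA, with replicates 1 and 2 of each. The DoG of RPL36, whose longest region lay over CATSPERD and NRTN, had the highest level of all members under OS+CHX in 2nd-step RNA. It stood under Ctrl at 0.07 and 0.06, 0.09 and 0.08, 0.10 and 0.06, and 0.17 and 0.18 FPKM. With OS+CHX it reached 0.49 and 0.49, 3.01 and 2.77, 0.64 and 0.57, and 6.15 and 5.97 FPKM. Every OS+CHX library was above every Ctrl library, and the 2nd-step difference was 4.49 (SE 0.10, adjusted p = 4.97e-13) on the log2(FPKM + 0.1) scale. The DoG of RPL27A was listed at no more than 0.02 FPKM in any Ctrl library. Its OS+CHX values were 0.45 and 0.39, 1.88 and 1.83, 0.40 and 0.41, and 2.64 and 2.81 FPKM, a difference of 4.62 (SE 0.08, adjusted p = 6.81e-14) in 2nd-step RNA. RPL3, a protein near the peptidyl transferase centre, had 0.07 and 0.07 FPKM in the Ctrl 2nd-step libraries and 3.35 and 3.11 under OS+CHX, a difference of 4.29 (SE 0.09, adjusted p = 2.27e-13). RPL32 went from 0.10 and 0.08 FPKM to 2.86 and 2.81 (3.95 log2). These 4 were also called higher after centring.

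RPL11 was the 60S DoG with the highest mean over all libraries, and it was high without stress. Its Ctrl libraries held 1.54 and 1.47, 1.5 and 1.47, 1.62 and 1.57, and 1.52 and 1.64 FPKM. Its OS+CHX libraries held 2.12 and 2.22, 3.27 and 3.12, 2.29 and 2.35, and 4.33 and 4.35 FPKM. The 2nd-step difference was 1.40 (SE 0.06, adjusted p = 2.03e-10), a rise smaller than the shift of all DoGs, and its sign turned with centring. Its longest region ran through PITHD1 and ELOA, and the part of their reads in these values was not tested.

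Among 40S proteins, 19 of 20 were higher and 0 lower in 2nd-step RNA, against 74.6% and 11.7% of all DoGs. Their median difference was 3.26, against 2.38 over all DoGs, and RPS10, at 0.57, was not called. All 20 differences were above 0, and after centring that of RPS10 was -1.68. The DoG of RPS12 had the highest mean of the group over the 16 libraries. It stood under Ctrl at 0.35 and 0.35, 0.49 and 0.50, 0.25 and 0.33, and 0.62 and 0.60 FPKM. In the OS+CHX libraries it had 1.08 and 0.94, 4.14 and 4.17, 0.73 and 0.83, and 5.06 and 5.16 FPKM. The groups did not overlap in any preparation, with differences of 1.30, 2.84, 1.18 and 2.88 (SE 0.10, adjusted p = 2.06e-11). After centring, all of these differences of RPS12 were positive and under 1. RPS29, a zinc-binding protein of the small subunit with the longest DoG, had 0.01 and 0.01, 0.03 and 0.03, 0.01 and 0.01, and 0.07 and 0.07 FPKM under Ctrl. The OS+CHX libraries held 0.46 and 0.41, 2.52 and 2.48, 0.33 and 0.35, and 3.40 and 3.50 FPKM, with a 2nd-step difference of 4.38 (SE 0.07, adjusted p = 5.75e-14).

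RPS9 and RPS3 had the largest 2nd-step differences of the 40S proteins. RPS9 was listed at 0.00 FPKM in all 6 Ctrl libraries outside 2nd-step RNA, where it had 0.01 and 0.01. RPS9 then had under OS+CHX 0.14 and 0.12, 1.27 and 1.18, 0.14 and 0.14, and 2.37 and 2.35 FPKM, a 2nd-step difference of 4.48 (SE 0.07, adjusted p = 5.45e-14), which depends on the pseudocount because the Ctrl values are near 0. RPS3, which lies at the mRNA entry of the 40S subunit and also acts in DNA repair, went from 0.03 and 0.03 FPKM to 2.73 and 2.81 (4.46 log2, SE 0.09, adjusted p = 1.54e-13). RPS6, the 40S target of the S6 kinases, went from 0.09 and 0.10 to 3.01 and 2.95 FPKM (3.98 log2), and RPS15A from 0.17 and 0.15 to 3.25 and 3.08 FPKM (3.65 log2). RPS9, RPS3, RPS6 and RPS15A were called higher after centring as well. RPS27A, which encodes a ubiquitin fused to a 40S protein, rose from 0.11 and 0.07 to 0.48 and 0.49 FPKM (1.63 log2), and its sign turned with centring.

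Among initiation factors, 18 of 22 were higher and 2 lower in 2nd-step RNA, against 74.6% and 11.7% of all DoGs. Their median difference was 2.50, against 2.38 over all DoGs. EIF5A, a hypusine-bearing factor that aids peptide bond formation at stalled ribosomes, had 0.05 and 0.07, 0.05 and 0.04, 0.09 and 0.07, and 0.08 and 0.12 FPKM under Ctrl. It rose under OS+CHX to 1.07 and 1.08, 2.95 and 2.74, 1.37 and 1.45, and 5.95 and 5.81 FPKM, and the 2nd-step difference of 4.91 (SE 0.11, adjusted p = 3.19e-13) was the largest of all members. Its region was 35 kb and ran over ACAP1. EIF4E, the cap-binding protein, stood under Ctrl at 0.11 and 0.11, 0.22 and 0.22, 0.10 and 0.11, and 0.37 and 0.37 FPKM. The stressed cells gave 0.31 and 0.26, 2.58 and 2.53, 0.25 and 0.24, and 3.58 and 3.63 FPKM, with a 2nd-step difference of 2.98 (SE 0.08, adjusted p = 1.10e-12). Its region was listed over 280 kb in all 4 hiAGPC and 2nd-step libraries under OS+CHX but over 10 or 15 kb in the 3 aqueous libraries that listed it, and it passed through TSPAN5. EIF3A went from 0.18 and 0.20 to 1.76 and 1.85 FPKM in 2nd-step RNA (2.72 log2, SE 0.08, adjusted p = 2.39e-12). EIF5A was also called higher there after centring, whereas the centred differences of EIF4E and EIF3A were positive and under 1.

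EIF3L, another eIF3 subunit, had the highest mean of the initiation factors and was high without stress. Its Ctrl libraries held 1.66 and 1.69, 1.40 and 1.40, 3.05 and 1.94, and 1.43 and 1.54 FPKM. Its OS+CHX libraries held 1.93 and 2.07, 1.34 and 1.27, 3.60 and 3.11, and 1.75 and 1.55 FPKM. Every 1st-step value was above every 2nd-step value in both conditions, and the OS+CHX differences of -0.09 (SE 0.16, adjusted p = 0.563) in hiAGPC and 0.14 (SE 0.16, adjusted p = 0.39) in 2nd-step RNA were not called. After centring the latter was -2.11. MICALL1 lay within its region, and its part in these values was not tested.

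The initiation regulators include EIF2AK2, the double-stranded RNA-activated kinase of eIF2α, and the 4E-BPs, which hold EIF4E away from the cap complex. In 2nd-step RNA 3 of 4 were higher, where 74.6% of all DoGs were. EIF4EBP3 had 0.75 and 0.81, 0.60 and 0.59, 1.22 and 0.91, and 0.40 and 0.35 FPKM under Ctrl. With OS+CHX it had 0.89 and 0.88, 1.65 and 1.68, 1.38 and 1.17, and 2.19 and 2.38 FPKM, a 2nd-step difference of 2.33 (SE 0.12, adjusted p = 8.63e-10), while its sign turned with centring in the other 3 preparations. EIF4EBP2 rose from 0.09 and 0.10 to 1.16 and 0.82 FPKM in 2nd-step RNA (2.47 log2). The centred 2nd-step differences of EIF4EBP3 and EIF4EBP2 were positive and under 1. EIF4EBP1, the remaining one, was not called in 2nd-step RNA and was lower under OS+CHX in the conventional and 1st-step preparations. EEF1A1, which delivers aminoacyl-tRNA to the ribosome and was the single elongation factor, was listed at no more than 0.01 FPKM in any Ctrl library. Its OS+CHX libraries gave 0.25 and 0.21, 0.86 and 0.76, 0.27 and 0.19, and 0.91 and 0.97 FPKM, with a 2nd-step difference of 3.24 (SE 0.11, adjusted p = 1.49e-11). After centring, this difference was positive and under 1. EEF1AKMT4 rose from 0.06 and 0.08 to 0.69 and 0.65 FPKM in 2nd-step RNA (2.18 log2), below the shift of all DoGs, so that its sign turned with centring.

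Of the synthetases, 3 of 4 cytosolic and 1 of 5 mitochondrial ones were higher in 2nd-step RNA, where 74.6% of all DoGs were. YARS1, the cytosolic tyrosyl-tRNA synthetase, had 0.02 and 0.03, 0.03 and 0.03, 0.02 and 0.02, and 0.06 and 0.07 FPKM under Ctrl. The OS+CHX values were 0.08 and 0.09, 0.54 and 0.45, 0.15 and 0.10, and 1.21 and 1.07 FPKM, a 2nd-step difference of 2.91 (SE 0.11, adjusted p = 4.23e-11). After centring, this difference was positive and under 1. SARS1, which charges serine tRNA, rose from 0.22 and 0.22 to 1.10 and 1.04 FPKM (1.87 log2), and its sign turned with centring. The mitochondrial cysteinyl-tRNA synthetase CARS2 had 0.06 and 0.07, 0.09 and 0.06, 0.11 and 0.08, and 0.09 and 0.07 FPKM under Ctrl. Under OS+CHX it had 2.21 and 2.29, 1.46 and 1.46, 1.51 and 2.23, and 1.21 and 1.16 FPKM, so that every aqueous library was above the hiAGPC and 2nd-step ones, and it was listed over the same 15 kb in all 8 OS+CHX libraries. Its differences were 3.83 (SE 0.15, adjusted p = 9.07e-10) in the conventional preparation, the largest of all members there, and 2.84 (SE 0.15, adjusted p = 1.23e-09) in 2nd-step RNA. After centring, the 2nd-step difference of CARS2 was positive and under 1.

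EIF3C, EIF3CL, RPL39L and WARS2 were lower under OS+CHX in both hiAGPC and 2nd-step RNA, and these were the DoGs that entered the table through Ctrl libraries alone. Their lower values under OS+CHX are therefore in part fixed by that choice. WARS2, the mitochondrial tryptophanyl-tRNA synthetase, had 0.71 and 0.74, 0.63 and 0.74, 0.57 and 0.66, and 0.76 and 0.73 FPKM under Ctrl. Under OS+CHX it had 0.20 and 0.16, 0.12 and 0.17, 0.12 and 0.18, and 0.07 and 0.11 FPKM, with a 2nd-step difference of -2.16 (SE 0.15, adjusted p = 1.69e-08). RPL39L, a paralog of RPL39 used in the testis, had 0.26 and 0.15, 0.32 and 0.29, 0.13 and 0.20, and 0.58 and 0.37 FPKM under Ctrl and was listed at 0.02 or less in every OS+CHX library. EIF3CL fell in 2nd-step RNA from 1.92 and 1.92 to 0.50 and 0.38 FPKM (-1.91 log2), and its copy EIF3C from 1.13 and 1.29 to 0.21 and 0.18 FPKM (-2.15 log2). In both aqueous preparations EIF3CL, RPL39L and WARS2 were lower too, and EIF3C was called in 1st-step RNA.

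In the aqueous preparations OS+CHX raised fewer members. In the conventional preparation 29 were higher and 5 lower, against 22.2% and 11.0% of all DoGs, with median log2 differences of 0.78 and 0.44. In 1st-step RNA 27 were higher and 6 lower, against 21.8% and 10.6%, with medians of 0.71 and 0.43. After centring, 14 were higher and 9 lower in the conventional preparation, against 8.6% and 19.6% of all DoGs, and 12 and 8 in 1st-step RNA, against 8.89% and 18.6%. Ribosomal proteins made up 20 of the 29 and 19 of the 27 higher calls, and 41 of the 78 members.

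CARS2, RPS4X, RPL31, EIF5A and RPL32 had the 5 largest differences in the conventional preparation. RPS4X, the X-linked 40S protein, had 0.02 and 0.02, 0.05 and 0.04, 0.01 and 0.02, and 0.06 and 0.09 FPKM under Ctrl. With OS+CHX the levels were 1.17 and 1.13, 2.44 and 2.42, 1.22 and 1.16, and 3.31 and 3.0 FPKM, a difference of 3.38 (SE 0.09, adjusted p = 1.08e-10) in the conventional preparation. RPL31, at the exit of the ribosomal tunnel, had 0.04 and 0.03 FPKM in the conventional Ctrl libraries and 1.08 and 1.03 under OS+CHX (3.10 log2, SE 0.07, adjusted p = 3.88e-11). Under OS+CHX its 2nd-step libraries, at 1.49 and 1.52 FPKM, were above its 1st-step libraries, at 1.19 and 1.14, by 0.34 (SE 0.07, adjusted p = 6.65e-04) on the log2 scale, against a median of 1.95 over the members. RPL32 went from 0.12 and 0.14 to 1.15 and 1.11 FPKM (2.42 log2). These 5 kept their call after centring. EIF4EBP1 and RPL34 were lower in the conventional preparation and not in hiAGPC or 2nd-step RNA, and NARS2 and EIF4EBP1 were lower in 1st-step RNA.

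Extractability was compared within each condition. Of the members, 39 (50.0%) had an FPKM only because OS+CHX libraries of hiAGPC or 2nd-step RNA listed them, as had 64.1% of all genes. Higher calls of these preparations against the aqueous ones under OS+CHX are therefore in part fixed by that choice. The study takes the log2 difference of hiAGPC from conventional AGPC as semi-extractability, and that of 2nd-step from 1st-step RNA as interphase enrichment. Under Ctrl, 0 members were called in hiAGPC against conventional by limma in either direction, where 1.08% and 0.0% of all DoGs were higher and lower, and 23 members had an unadjusted p under 0.05, as did 25.5% of all DoGs. Under OS+CHX, 53 members were higher and 0 lower, against 68.8% and 0.478% of all DoGs, with medians of 1.34 and 1.40. Between the SERIPH fractions under Ctrl, 10 members were higher in 2nd-step RNA and 4 lower, against 11.0% and 3.28%, and after centring 4 and 7, against 5.99% and 5.03%. Under OS+CHX, 58 were higher and 0 lower, against 79.3% and 2.96%, with medians of 1.95 and 1.99. With a pseudocount of 1, the higher members under OS+CHX were 10 in hiAGPC against conventional and 26 between the SERIPH fractions, against 4.59% and 18.3% of all DoGs. By adjusted p alone, 2 members were lower in hiAGPC against conventional and 4 in 2nd-step against 1st-step RNA under OS+CHX, against 4.08% and 5.7%. With all 4 libraries of the latter comparison, no member was lower by 1 or more on the log2 scale. EIF3L was so without 1st-step replicate 2 or 2nd-step replicate 1, and YARS2 without either of the others.

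The members' medians lay near those of all DoGs in both comparisons. After centring, 4 members were higher and 14 lower in hiAGPC against conventional under OS+CHX, where 3.54% and 16% of all DoGs were. In 2nd-step against 1st-step RNA 9 were higher and 19 lower, against 6.72% and 20.4%. EIF4E, RPL3, RPS15A and RPS9 were higher after centring in both. EIF4E had the largest hiAGPC difference, 2.79 (SE 0.08, adjusted p = 4.08e-11), and a 2nd-step difference of 3.42 (SE 0.08, adjusted p = 2.34e-12). RPL3 had 2.69 (SE 0.09, adjusted p = 7.54e-11) and 3.42 (SE 0.09, adjusted p = 3.64e-12). RPS9 had 2.53 (SE 0.07, adjusted p = 3.21e-11) and 3.36 (SE 0.07, adjusted p = 1.41e-12), and RPS15A had 2.46 and 3.31. RPS6, at 2.41, was among the 5 largest in hiAGPC, and RPL36, at 3.13, among the 5 largest in 2nd-step RNA.

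CARS2 and EIF3L were among the 3 lowest in both comparisons, with WARS2 in hiAGPC and YARS2 in 2nd-step RNA. CARS2 was lower by adjusted p in hiAGPC against conventional, -0.59 (SE 0.15, adjusted p = 0.00277), and in 2nd-step against 1st-step RNA, -0.59 (SE 0.15, adjusted p = 0.00253), without reaching a difference of 1. EIF3L had -0.58 (SE 0.16, adjusted p = 0.00379) and -0.98 (SE 0.16, adjusted p = 6.06e-05). YARS2, the mitochondrial tyrosyl-tRNA synthetase, had 0.70 and 0.79, 0.72 and 0.67, 0.47 and 0.62, and 0.16 and 0.34 FPKM under OS+CHX, so that its 2nd-step libraries were the lowest, and its difference between the SERIPH fractions was -0.92 (SE 0.20, adjusted p = 8.35e-04). By role, 17 of 20 40S proteins, 12 of 21 60S proteins and 14 of 22 initiation factors were called higher by hiAGPC against conventional AGPC under OS+CHX, where 68.8% of all DoGs were, with medians of 1.86, 1.03 and 1.38. In 2nd-step against 1st-step RNA these were 18, 14 and 16, where 79.3% of all DoGs were, with medians of 2.56, 1.45 and 1.95.

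The difference of the OS+CHX response between preparations was tested as an interaction. Larger responses in hiAGPC and 2nd-step RNA are in part fixed by the listing that gave a DoG its FPKM. In hiAGPC against conventional AGPC the response was larger for 48 members and smaller for 0, against 64.0% and 0.733% of all DoGs, with medians of 1.27 and 1.29, and by adjusted p alone it was smaller for 2, against 4.01%. It was larger in 2nd-step than in 1st-step RNA for 54 members and smaller for 2, against 72.9% and 4.21%, with medians of 1.76 and 1.76. The larger responses with a pseudocount of 1 were 8 and 26 members, against 4.21% and 16.3% of all DoGs. RPL39L entered the table through Ctrl 2nd-step replicate 1 alone, the library with its highest value, and its smaller response is in part fixed by that. Both smaller ones, RPL39L and YARS2, lost their call when single libraries were left out. Without Ctrl replicate 1 of either SERIPH step YARS2 alone remained, and without OS+CHX 1st-step replicate 2 or 2nd-step replicate 1 RPL39L alone. RPL3, RPS9, RPS3 and RPS15A had differences of 3.24, 3.22, 3.22 and 3.10 between the SERIPH fractions. After centring, 2 members were higher and 13 lower in the first of these interactions, against 3.47% and 17.3%, and 7 and 17 in the second, against 9.27% and 22.4%.

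Few members were called between the preparations that recover the interphase. In 2nd-step RNA against hiAGPC under Ctrl, 0 members were higher and 1 lower, against 0.86% and 1.47% of all DoGs, and that member was EIF3J, a loosely bound eIF3 subunit, with 0.40 and 0.44 FPKM in hiAGPC and 0.11 and 0.13 in 2nd-step RNA. The EIF3J region was listed over 10 kb under Ctrl and up to 185 kb under OS+CHX, and the longest one ran over B2M and TRIM69, whose part in these values was not tested. EIF3J was not called with a pseudocount of 1. By adjusted p alone 17 members were higher and 8 lower, against 20.1% and 6.53%. Under OS+CHX, 5 members were higher and 1 lower, against 6.91% and 1.75%, with medians of 0.43 and 0.52. The 5 were YARS1 (1.06 log2, SE 0.11, adjusted p = 7.70e-06), EIF4EBP2 (1.04), RPL36 (1.04), RPL3 (1.02) and EIF5A (1.02), all just past a difference of 1. Without 2nd-step replicate 1 under OS+CHX 2 members were higher, and without hiAGPC replicate 2 there was 1. YARS2 was lower, with 0.72 and 0.67 FPKM in hiAGPC and 0.16 and 0.34 in 2nd-step RNA (-1.23 log2, SE 0.20, adjusted p = 1.87e-04), and 0 were lower without that 2nd-step replicate. After centring, 0 were higher and 1 was lower, against 0.0% and 3.7%.

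Under OS+CHX most listed regions of the members, like those of all DoGs, reached further in 2nd-step RNA than with hiAGPC. Of 58 members reproducible in both under OS+CHX, 46 had a longer mean region in 2nd-step RNA, 4 a shorter one and 8 the same, with a median ratio of 1.33, against 1.36 over the 1287 DoGs reproducible in both. Of those 1287 DoGs, 967 were longer, 113 shorter and 207 the same. In 27 members (46.6%) both 2nd-step replicates were longer than both hiAGPC replicates, and in 45.9% of all. The ratio was 1.10 without replicate 2 and 1.28 without replicate 1. The median mean length was 52.5 kb in hiAGPC and 90.4 kb in 2nd-step RNA. Under Ctrl, 7 members could be compared, of which 4 were longer and 1 shorter, against 169 longer and 28 shorter of 358 DoGs.

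**Figure D4:**
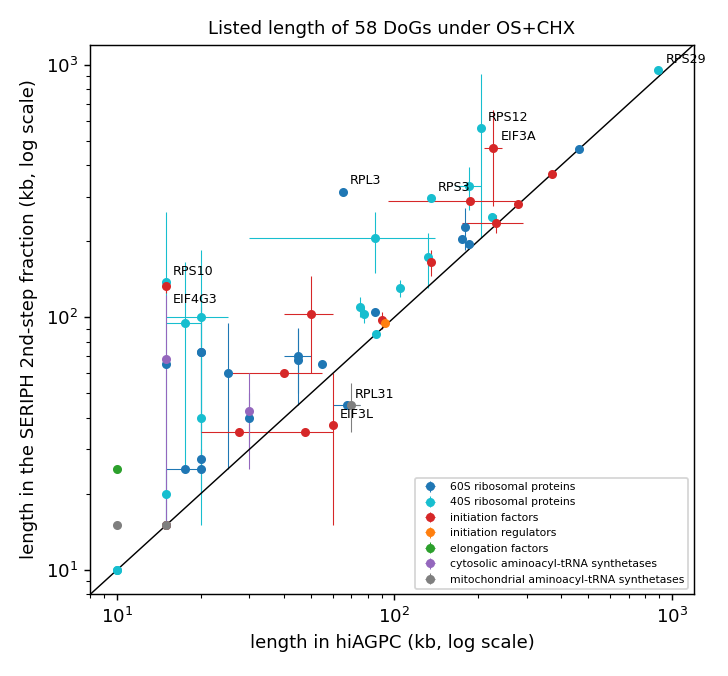
Mean listed region length (kb, log scales) of 58 translation genes under OS+CHX in hiAGPC (horizontal axis) and in 2nd-step RNA (vertical axis), coloured by role, with bars spanning both replicates and the line of equal length. Of the points, 46 lie above the line, and long vertical bars such as those of RPS12 and RPS10 mark genes whose 2nd-step replicates differed.

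Among the members with 2nd-step replicates that matched, RPL3 was listed over 65 kb in both hiAGPC replicates and over 314.511 kb in both 2nd-step replicates, a region that held CBX7 and PDGFB. RPS3 was listed over 135 kb and 295.507 kb in the same way, and RPL28 over 15 kb and 65 kb. In RPS10 the 9.20-fold ratio came from a single 2nd-step replicate with 261.066 kb beside 15 kb in the other. EIF4E, EIF5, RPS4X, CARS2, RPS28, EIF1 and RPS7 were among those of the same length in all 4 libraries. EIF3L, MARS2, RPL31 and EIF1B were shorter in 2nd-step RNA, and RPL31 had 60 kb and 75 kb in hiAGPC and 45 kb in both 2nd-step replicates.

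Of 33 other translation genes, which include ribosomal stalk proteins, release and recycling factors, poly(A)-binding proteins and LARP proteins, 12 had a DoG with an FPKM. Of these, 10 were higher and 1 lower under OS+CHX in 2nd-step RNA, against 74.6% and 11.7% of all DoGs. In hiAGPC 10 were higher and 1 lower, against 70.2% and 9.14%. The median log2 differences were 1.70 in 2nd-step RNA and 1.84 in hiAGPC. In the conventional preparation 5 were higher and 0 lower, against 22.2% and 11.0%, and in 1st-step RNA 4 and 0, against 21.8% and 10.6%. Between the SERIPH fractions under OS+CHX, 7 were higher in the 2nd step and 2 lower, against 79.3% and 2.96% of all DoGs. LARP1 and GSPT1 are named here because of their values. LARP1, which binds the 5′ ends of ribosomal protein mRNAs, fell from 1.72 and 1.89 FPKM to 0.23 and 0.32 in 2nd-step RNA and from 1.38 and 1.46 to 0.50 and 0.48 in hiAGPC. LARP1 and GSPT1, the release factor eRF3a, were the 2 lower in 2nd-step than in 1st-step RNA under OS+CHX. The median for the members was 2.59 in 2nd-step RNA, and the difference between both lists was not tested.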

How the data were processed

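RNA of HEK293 cells under 2 conditions was sequenced in 16 stranded, rRNA-depleted libraries. Per the labels and the paper's methods, the authors trimmed reads with fastp 0.25.0, discarded those that matched rDNA (Bowtie2 2.5.4), mapped the others (STAR 2.7.11b, GRCh38, unique alignments kept) and listed DoGs in each library with ARTDeco (minimum 10000 bp, window 5000 bp), for genes of GENCODE 49. The deposited FPKM values, made by the authors, cover 3139 DoG rows, and the reads used for their scaling are not given in the sources used here. The authors' own comparisons used DESeq2 on counts, which were not used here.

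Symbols were taken from GENCODE 44, and 8 gene identifiers had none. FPKM was tested as log2(FPKM + 0.1) with limma 3.58.1 (R 4.3.3, intensity trend, 8 group means over 16 libraries, two-sided), with Benjamini-Hochberg adjustment over all rows of a comparison and calls at an adjusted p under 0.05 and a log2 difference of at least 1. The fit was tested on simulated data. No depth, counting interval or whole reads could be recovered from values rounded to 0.01. The added 0.1 understates the fold of a low DoG. The p-values rest on the spread between 2 biological replicates, pooled over the 8 groups and moderated across DoGs. Numbers of listed DoGs were compared by exact permutation. Region overlaps needed 1 base on the same strand. Python 3.11.15, pandas 2.3.3 and scipy 1.17.1 were used.

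Genes described with values were, by a fixed rule, the highest mean FPKM of each role, the 5 highest and 3 lowest differences of the main OS+CHX and preparation comparisons, the 3 longest regions, the members listed in control libraries alone and RPS12. Members, lists and this rule were chosen with earlier results of these data known. Other members are named after their values were seen. Alternatives were a pseudocount of 0.01 or of 1, leaving out DoGs below a mean FPKM of 0.1, centring, no trend, blocks of replicate numbers, fits to the compared libraries only, the adjusted p alone, reproducible DoGs, regions without other genes, a minimum of 20 kb, and each library left out. Values of RARS2, RPL29 and RPL39, listed without FPKM, entered no test. Lengths of single regions of a few members are not reported here.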

Additional observations from a re-analysis of the deposited data

Results flagged for a closer look

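The OS+CHX response differed between preparations for many translation genes, which is in part fixed by the listing that gave a DoG its FPKM. It was larger in hiAGPC than in conventional AGPC for 48 members and larger in the SERIPH 2nd-step than in the 1st-step fraction for 54, by limma's interaction term, where 64.0% and 72.9% of all DoGs were called. With a pseudocount of 1 it was larger for 8 and 26 members, and after centring for 2 and 7, where 3.47% and 9.27% of all DoGs were.

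RPL39L and YARS2 had a smaller response in the 2nd-step than in the 1st-step fraction, by the same term. The difference was -1.11 for RPL39L, whose FPKM under OS+CHX was 0.00 in all 4 SERIPH libraries and under Ctrl higher in the 2nd-step than in the 1st-step libraries. RPL39L had an FPKM because Ctrl 2nd-step replicate 1 alone listed it, and that library held its highest value, so its difference is in part fixed by the selection. The difference was -1.09 for YARS2, whose 2nd-step libraries were the lowest of all OS+CHX libraries. When single SERIPH libraries were left out, only 1 of both was called in 4 cases.

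RPL29 and RPL39, genes of 60S proteins, had listed regions without an FPKM, outside the members. RPL29 was listed in 0 of 8 Ctrl and 6 of 8 OS+CHX libraries, over up to 15.0 kb. RPL39 was listed in 3 of 8 Ctrl libraries over 10.0 kb and in 3 of 8 OS+CHX libraries over 45.0 to 90.0 kb. RARS2, the mitochondrial arginyl-tRNA synthetase, was listed in 8 of 8 Ctrl and 1 of 8 OS+CHX libraries. These were not tested.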

How the results depend on the processing

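Counts below are of members, given as higher and lower, and their main values stand in the report. Under a mean FPKM of at least 0.1, no intensity trend, the libraries of a comparison alone and both replicate blocks, the counts stayed within 1.5 times. Conventional AGPC and hiAGPC were run on the same samples per the paper's methods, but no label ties the replicate numbers to them. Correlations of replicate deviations between groups of a condition ran from -0.0725 to 0.0576, so the numbers were not used as pairs. With a replicate block 29 members were higher and 5 lower in the conventional preparation, and no call count moved by over 1.5 times.

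With a pseudocount of 1, OS+CHX calls were 2 and 0 (conventional), 22 and 0 (hiAGPC), 4 and 0 (1st-step), 39 and 1 (2nd-step). The 2nd-step against 1st-step calls were 0 and 0 under Ctrl and 26 higher under OS+CHX. Calls of 2nd-step against hiAGPC were 0 lower under Ctrl and 0 and 0 under OS+CHX, hiAGPC against conventional gave 10 higher under OS+CHX, and the interactions gave 8 higher, and 26 and 0. With a pseudocount of 0.01, calls were 44 higher (conventional) and 42 higher (1st-step). Under Ctrl they were 5 higher in hiAGPC against conventional, 20 and 9 in 2nd-step against 1st-step, and 3 and 4 in 2nd-step against hiAGPC. Under OS+CHX 2 were lower in 2nd-step against 1st-step, and 1 in its interaction. The shares of all DoGs with a pseudocount of 0.01 are not given here, so these counts do not by themselves set the members apart.

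With adjusted p alone, calls were 50 and 9 (conventional), 52 higher (1st-step), 12 and 3 (hiAGPC against conventional, Ctrl), 29 and 12 (2nd-step against 1st-step, Ctrl), 17 and 8 (2nd-step against hiAGPC, Ctrl), and 50 and 2 (the same, OS+CHX). Lower calls were 2 and 4 in hiAGPC against conventional and 2nd-step against 1st-step under OS+CHX, and 2 and 5 in the interactions. For most of these comparisons the share of all DoGs by adjusted p alone is not given, so the counts do not by themselves set the members apart. With centring, the OS+CHX difference turned its sign for EIF4EBP3 (-0.39 in conventional, -0.57 in hiAGPC, -0.25 in 1st-step), and in 2nd-step RNA for EEF1AKMT4 (-0.067), EIF3L (-2.11), EIF4EBP1 (-1.88), RPL11 (-0.84), RPS10 (-1.68), RPS27A (-0.62) and SARS1 (-0.38). The 2nd-step against 1st-step difference of RPL31 became -1.64. Then OS+CHX calls were 14 and 9, 21 and 15, 12 higher, and 22 and 16 in the 4 preparations. They were 4 and 7 (2nd-step against 1st-step, Ctrl), 4 and 14 (hiAGPC against conventional, OS+CHX), 9 and 19 (2nd-step against 1st-step, OS+CHX), 0 higher (2nd-step against hiAGPC, OS+CHX), and 2 and 13, and 7 and 17 in the interactions.

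Among DoGs whose region overlapped no other gene, which left fewer members, higher OS+CHX calls were 15, 32, 14 and 34. Members dropped there include the 32 whose longest region lay over another protein-coding gene, so these counts are not out of 78. The calls in other comparisons of this filter follow. They were 5 and 0 (2nd-step against 1st-step, Ctrl), 0 lower (2nd-step against hiAGPC, Ctrl), 29 higher (hiAGPC against conventional, OS+CHX), 31 higher (2nd-step against 1st-step, OS+CHX), 2 higher (2nd-step against hiAGPC, OS+CHX), and 25 and 28 higher in the interactions. Among reproducible DoGs, also fewer, OS+CHX calls were 15 and 2 (conventional), 0 lower (hiAGPC), 17 and 1 (1st-step), and 2 lower (2nd-step). They were 2 and 1 (2nd-step against 1st-step, Ctrl), and 0 lower in its interaction. The shares of all DoGs under these filters are not given here, so a smaller count does not by itself mean a smaller share. With listing in either replicate, hiAGPC under Ctrl had 11 members. With regions of at least 20 kb, members listed under Ctrl were 0, 1, 0 and 2 in the 4 preparations, and 13 and 12 under OS+CHX in conventional and 1st-step.

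Leaving out each library, 2nd-step against 1st-step under OS+CHX had 1 lower in every case, and its interaction 1 to 2 lower. In 2nd-step against hiAGPC under OS+CHX, 1 to 6 were higher and 0 to 1 lower. Length ratios ran from 1.00 to 1.44 under Ctrl and from 1.10 to 1.28 under OS+CHX. Where a library was left out, the lone replicate was assumed to vary like the other groups. Apart from alternatives that drop genes or samples, the cause was not tested. Centring made lower calls outnumber higher ones in the comparisons between preparations under OS+CHX and in both interactions. With 2 replicates and no exact depth, values near 0.01 FPKM carry little information, a member's FPKM can hold reads of genes inside its region, and levels are relative to the other RNA of a library.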
